A study of Mus musculus with 6 samples.

Results

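Glycolysis, pyruvate oxidation and the tricarboxylic acid (TCA) cycle were followed through 48 genes, chosen by symbol, of the 24972 gene rows in the table of normalized counts. Of these, 21 encode glucose and lactate transporters and the enzymes from hexokinase to lactate dehydrogenase, and 27 encode the mitochondrial pyruvate carrier, the pyruvate dehydrogenase (PDH) complex and its regulators, the TCA cycle and the malate-aspartate shuttle. The 27 are called mitochondrial members below, although Mdh1 and Got1 among them encode cytosolic enzymes of the shuttle. All 48 were found and all 48 passed the filter on low values, a mean of at least 10 over the 6 libraries. RNA came from ventricular cardiomyocytes of MX1gfp mice, which carry a green fluorescent protein reporter at the interferon-stimulated gene Mx1. The allele is shared by both groups. A vehicle group of 3 mice was injected intraperitoneally with phosphate buffered saline, and a doxorubicin group of 3 mice with 25 mg/kg doxorubicin in the same buffer, each in 100 microlitres, and hearts were taken 48 hours later. Doxorubicin is an anthracycline that poisons topoisomerase II and is toxic to the heart. Neither age nor sex is in the labels, and cells were enriched by settling under gravity, with no sort described.

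Glucose enters the cardiomyocyte through the insulin-responsive transporter GLUT4 (Slc2a4) and the constitutive GLUT1 (Slc2a1), is split to pyruvate in the cytosol, and is either reduced to lactate or carried into mitochondria and decarboxylated by PDH to acetyl-CoA. The adult heart draws most of its energy from fatty acids and also burns lactate, so its PDH complex is under tight control by kinases and phosphatases. Several steps of glycolysis are catalysed by paralogous enzymes, of which one is typical of muscle and the other of most cell types.

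The deposited values summed to between 7217949 and 7500386 per vehicle library and between 5410780 and 6498373 per doxorubicin library. The reads behind them, estimated from the most common low value, numbered about 7680000 to 11400000 and 3660000 to 6180000, so every doxorubicin library was the shallower, and depth and treatment cannot be told apart. In most members and in the summed cardiomyocyte markers, doxorubicin replicate 1 stood apart from the other doxorubicin libraries and nearer to the vehicle libraries. Nothing in the labels sets it apart, and whether its treatment was as labelled could not be checked, so each mean over 3 doxorubicin libraries holds only as far as that label does. Defining markers of cardiomyocytes were abundant in every library (8 of 8 detected), but their summed level was 573585 to 673449 in the vehicle group and 505491, 167540 and 144803 in doxorubicin replicates 1 to 3. The 8 endothelial markers summed to 15751 to 22208 in vehicle and 29215 to 38164 in doxorubicin libraries, the 8 macrophage markers to 1963 to 2071 and 3226 to 13172, the 8 fibroblast markers to 6236 to 8274 and 8639 to 22816, and the 5 neutrophil markers to 10.5 to 21.7 and 55.0 to 562. Retnlg was listed at 0 in all vehicle libraries. Markers within a list did not all move alike. Of the fibroblast markers 3 were higher without overlap and 5 overlapped. Dcn alone had 18072 in doxorubicin replicate 2, and Col3a1 differed by -0.42. Of the endothelial markers 6 were higher without overlap and 2 overlapped, with Kdr at -0.26. Of all genes tested 19.2% were higher without overlap. The 6 lymphocyte markers summed to 12.6 to 29.5 and 3.61 to 51.4, the 6 mural markers to 6455 to 11490.4 and 8112 to 11641, and the 4 atrial markers to 456 to 526 and 368 to 1426. The lymphocyte and atrial maxima were those of doxorubicin replicate 1, which also lay above the vehicle range in the endothelial sum (30025). Among the 5 erythroid markers (1211 to 2104 in vehicle, 9027, 249.8 and 421 in doxorubicin replicates 1 to 3), Hbb-bs was at 0 throughout. The part of these cell types in the results below was not tested. Lower values in such bulk RNA cannot tell fewer cardiomyocytes from less RNA per cardiomyocyte.

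The first comparison asked whether the genes of glucose oxidation differed between doxorubicin and vehicle. Of the 48 members, 45 were lower after doxorubicin, against 50.4% of all genes tested (70.9% of the 1206 genes with a mean of at least 1000, the range in which most members lie), by -0.65 to -1.32 on the log2(value + 1) scale among the 27 mitochondrial members, and the 3 with a positive difference, against 49.6% of all genes, were Slc2a1, Eno1 and the lactate exporter gene Slc16a3. The sign of Eno1 turned to -0.13 when its near-identical copy Eno1b was added to it. In 43 members all 3 doxorubicin values lay below all 3 vehicle values, against 22.6% of all genes tested (and 46.5% of those with a mean of at least 1000), and in 0 members all lay above, against 19.2%. The median log2 difference was -0.96 over the members, -0.00 over all 12477 genes tested and -0.35 over the genes with a mean of at least 1000. The deposited values are scaled to the same median ratio in every library. A median near 0 over all genes, with about as many lower as higher, therefore follows from that scaling. Summed, the members made up 4.08% to 4.22% of a vehicle library. In doxorubicin replicates 1, 2 and 3 they made up 3.52%, 2.52% and 1.98%.

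No member passed the test across all genes with all 6 libraries. At a threshold of 0.05 on the Benjamini-Hochberg adjusted p, limma called 0 of 48 members and 0% of all genes in each direction, with 0.0859 as the lowest adjusted p. Before adjustment, 41 members were lower at p under 0.05, against 19.3% of all genes, and 1 was higher, against 16.7%. An adjusted p under 0.10 was reached by 33 members, all lower, against 13.1% of all genes. Without doxorubicin replicate 1, limma called 42 members lower, against 21.8% of all genes, and 1 higher, Slc16a3, against 19.3%. The shares beside these counts are over all genes tested and were not computed for genes with a mean of at least 1000. In that range more genes were lower without overlap (46.5% against 22.6%), so the excess over genes of like abundance is not known. That fit omits the doxorubicin library nearest to the vehicle libraries and was singled out after the values were seen, so its adjusted p, given below for each gene, describe those 5 libraries and are no independent support. No other omission of 1 library called a member (smallest adjusted p of a member 0.166 to 0.256).

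The scaling of the libraries sets the size of many differences. Of the 39 members given with every library value, 14 had a difference over 1.5 times smaller under quantile normalization. These were Gapdh (-0.33), Pkm (-0.25), Got1 (-0.26), Idh2 (-0.31), Mdh2 (-0.34), Pdha1 (-0.41), Aldoa (-0.45), Ldha (-0.49), Ldhb (-0.503), Ogdh (-0.56), Sucla2 (-0.63), Cs (-0.702), Mdh1 (-0.74) and Hk1 (-0.14), and Eno1 was over 1.5 times larger (0.37). Scaling to equal totals moved the median of all genes to 0.30, and 11 of the 39 were then over 1.5 times smaller, with Hk1 and Pgam1 at -0.04.

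**Figure D1:**
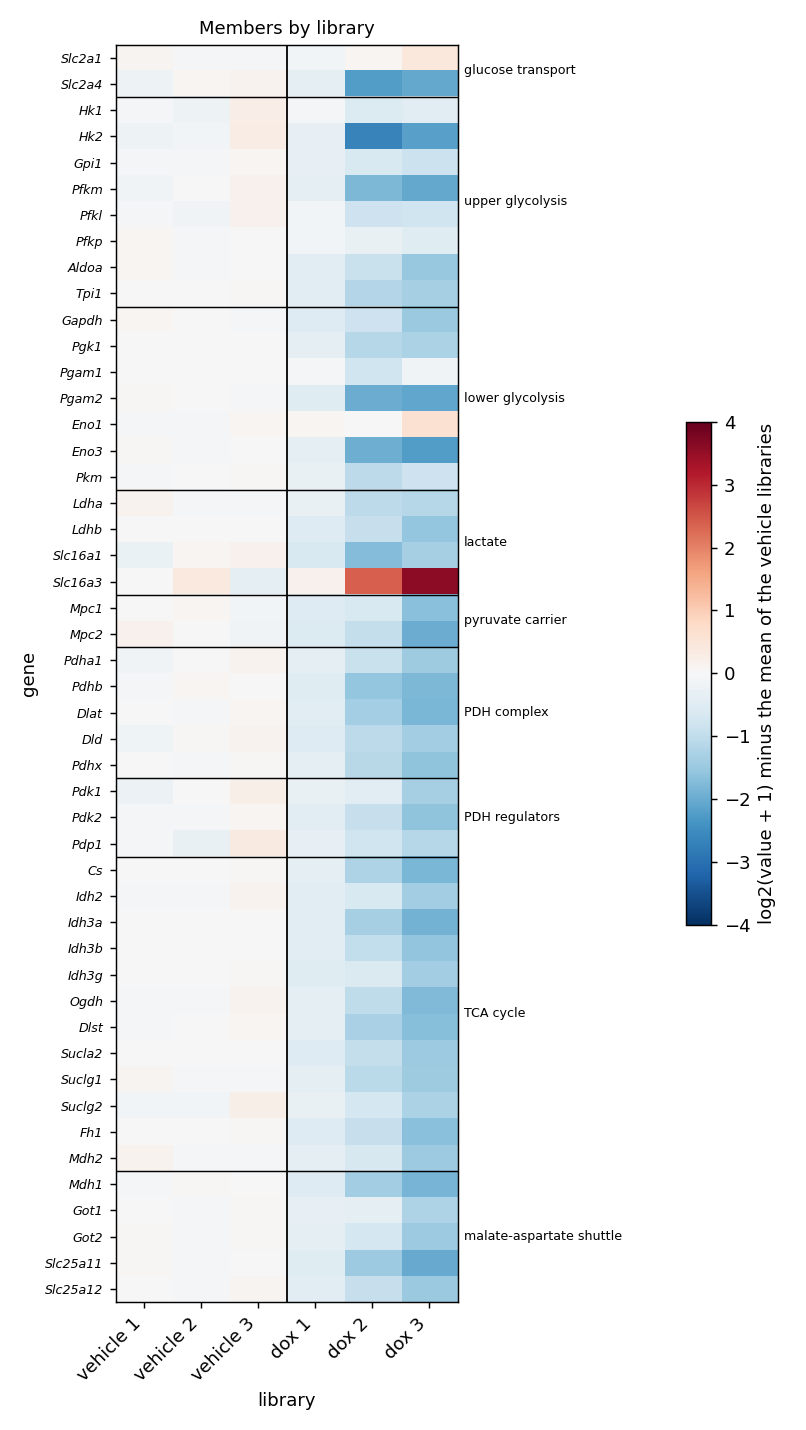
Each row is a member and each column a library, coloured by log2(value + 1) minus the mean of the 3 vehicle libraries of that gene, with members grouped by role. In 45 of 48 rows doxorubicin replicates 2 and 3 both lie below every vehicle library, and doxorubicin replicate 1 is the highest doxorubicin library in 45.

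Among the glucose transporters, the GLUT4 gene was lower and the GLUT1 gene was not. Slc2a4 (chromosome 11, 69942286 to 69948216, GRCm38) stood at 3029.7, 3689 and 3896 normalized counts in vehicle replicates 1 to 3 and at 2683, 747 and 847 in doxorubicin replicates 1 to 3. Doxorubicin replicates 2 and 3 lay far under the lowest vehicle value, and replicate 1 lay nearer to it. The means were 3538 ± 452 and 1426 ± 1089.9 (SD, n = 3 in each group), a log2 difference of -1.56 (SE 0.46, limma adjusted p 0.0859). In the fit of 5 libraries Slc2a4 differed by -2.14 on the log2 scale (adjusted p 0.000208). Slc2a1 (chromosome 4, 119108745 to 119137330) had 146, 128 and 131 in vehicle and 126, 142 and 181 in doxorubicin libraries, so its groups overlapped (log2 difference 0.13, adjusted p 0.623), and without doxorubicin replicate 3 the difference was -0.014.

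All 8 genes of upper glycolysis, from hexokinase to triose-phosphate isomerase, were lower, with 6 having groups that did not overlap and a median of -0.76. Of all genes tested 22.6% were lower without overlap, and 46.5% of those with a mean of at least 1000. Hexokinase traps glucose in the cell as glucose 6-phosphate, and Hk2 (chromosome 6, 82725025 to 82774454), its insulin-responsive muscle form, had the largest negative difference of the 48 members. Its values were 2306, 2449 and 3242 in vehicle and 2088, 412 and 585 in doxorubicin libraries, with the lowest in doxorubicin replicate 2. The log2 difference was -1.73 (SE 0.55, adjusted p 0.0865), and in the fit of 5 libraries Hk2 differed by -2.42 (adjusted p 0.000278). Hk1 (chromosome 10, 62268855 to 62379920), the widely expressed form, had 1637, 1503 and 2077 and 1658, 1177 and 1287. Doxorubicin replicate 1 lay within the vehicle range, and the difference of -0.34 did not pass in either fit (adjusted p 0.251 with 6 libraries and 0.0636 with 5).

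Phosphofructokinase, the committed step of glycolysis, is encoded by a muscle gene, Pfkm, a liver gene, Pfkl, and a platelet gene, Pfkp. Pfkm had 6944, 7455 and 8534 in vehicle and 5854, 2204 and 1861 in doxorubicin libraries, a log2 difference of -1.40 (SE 0.42, adjusted p 0.0859, and 0.000428 in the fit of 5 libraries, where it differed by -1.91). Its groups did not overlap. Pfkl had 887, 827 and 1033 and 854, 518 and 529.7, with doxorubicin replicate 1 inside the vehicle range (log2 difference -0.56, adjusted p 0.119, and 0.00478 with 5 libraries). Pfkp had 404, 361 and 379 and 354, 309 and 272, a difference of -0.30 that passed in neither fit (adjusted p 0.189 and 0.0576) and was 0.0020 when libraries were scaled to equal totals. Per kilobase of transcript, Pfkm was the most abundant of the 3 genes in both groups, at a mean of 2655 normalized counts in vehicle, against 245 for Pfkl and 92.1 for Pfkp.

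The aldolase gene Aldoa, which encodes the enzyme that cleaves fructose 1,6-bisphosphate, had 25578, 23217 and 23619 in vehicle and 17899, 13049 and 8475 in doxorubicin libraries. The groups did not overlap (log2 difference -0.94, SE 0.37, adjusted p 0.115). Tpi1, the triose-phosphate isomerase gene, had the smallest unadjusted p of upper glycolysis, with 5437, 5472 and 5680.4 and 4048, 2440.5 and 2209 (log2 difference -0.98, adjusted p 0.0859). Gpi1, the phosphoglucose isomerase gene, differed by -0.59 (adjusted p 0.0962). These 3 genes were called lower in the fit of 5 libraries, with adjusted p of 0.0164 for Aldoa, 0.00132 for Tpi1 and 0.0149 for Gpi1.

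Of the 7 genes of lower glycolysis, 6 were lower without overlap of the groups, with a median over the 7 of -0.93. The shares lower without overlap were 22.6% of all genes tested and 46.5% of those with a mean of at least 1000. Gapdh, the glyceraldehyde 3-phosphate dehydrogenase gene often used as a reference in heart studies, had 31156, 29253 and 28634 in vehicle and 20725, 16696 and 10638 in doxorubicin libraries. Every doxorubicin library lay below every vehicle library, and the log2 difference of -0.94 (SE 0.37, adjusted p 0.119) was close to the median of the members. Pgk1, the phosphoglycerate kinase gene on the X chromosome, differed by -0.93 (adjusted p 0.0859). Gapdh, Aldoa, Pgk1, Tpi1 and Ldha have processed copies in the mouse genome with which reads may be shared, so their values are less certain than those of single-copy genes.

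Phosphoglycerate mutase and enolase each have a muscle paralogue and a widely expressed one. The muscle mutase gene Pgam2 (chromosome 11, 5801637 to 5803796) had 4288, 4107 and 4047 in vehicle and 2936, 1055 and 992 in doxorubicin libraries, with a log2 difference of -1.51 (SE 0.40, adjusted p 0.0859). The SD of its vehicle libraries was 126 about a mean of 4148, and it differed by -2.02 in the fit of 5 libraries, with the smallest adjusted p of all members there, 0.000178. Pgam1, the widely expressed form, had 719.8, 717 and 709 and 682, 411 and 642, lower in every doxorubicin library but past the threshold in neither fit (-0.34, adjusted p 0.265 and 0.0857). The muscle enolase gene Eno3 (chromosome 11, 70653125 to 70662513) had 10099.7, 9359.7 and 9903 and 7419.8, 2539.6 and 2084 (log2 difference -1.52, SE 0.46, adjusted p 0.0859), and differed by -2.09 in the fit of 5 libraries (adjusted p 0.000334). The widely expressed Eno1 (chromosome 4, 150236708 to 150248879) had 849, 844 and 913 and 915, 872 and 1318. Its groups overlapped, doxorubicin replicate 3 was the highest library, and its difference of 0.23 passed in neither fit (adjusted p 0.405 and 0.237). Reads of Eno1 may be split with Eno1b, and the difference of their sum was -0.13, so no direction is given for Eno1.

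Pyruvate kinase, which makes pyruvate and the last ATP of glycolysis, is encoded by Pkm, whose M1 and M2 splice forms share 1 row of the table. Pkm had 9426, 9862 and 10079 in vehicle and 8023, 4737 and 5462 in doxorubicin libraries, without overlap (log2 difference -0.72, SE 0.27, adjusted p 0.106, and 0.00952 in the fit of 5 libraries, where it differed by -0.94).

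Among the 4 genes of lactate metabolism, the 2 dehydrogenase subunits and the monocarboxylate transporter gene Slc16a1 were lower without overlap. So were 22.6% of all genes tested and 46.5% of those with a mean of at least 1000. Ldhb, the heart subunit that favours the oxidation of lactate to pyruvate, had 12388, 12193 and 12264 in vehicle and 8666, 6422 and 4190.1 in doxorubicin libraries. Its log2 difference was -0.997 (SE 0.31, adjusted p 0.0863). Ldha, the subunit typical of glycolytic tissue, had 5609, 4865 and 4880.5 and 4198, 2482 and 2300.2, a difference of -0.82 (SE 0.27, adjusted p 0.0878). In the fit of 5 libraries Ldhb differed by -1.24 and Ldha by -1.10 (adjusted p 0.00676 and 0.00256). Slc16a1 (chromosome 3, 104638664 to 104658462), which encodes MCT1, the transporter that brings lactate into the heart, had 2014, 2585 and 2768 and 1595, 728 and 958. It had the smallest unadjusted p of the lactate genes, with a log2 difference of -1.23 (SE 0.30, adjusted p 0.0859, and 0.000994 in the fit of 5 libraries, where it differed by -1.54).

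Slc16a3 (chromosome 11, 120948484 to 120959000), which encodes MCT4, the exporter of lactate from glycolytic cells, went the other way. Its values were low in 4 libraries, at 11.1, 14.6 and 8.06 in vehicle and 12.4 in doxorubicin replicate 1, and higher at 62.1 and 142 in doxorubicin replicates 2 and 3. The groups therefore overlapped, and the log2 difference of 2.05 (SE 0.79, adjusted p 0.113) did not pass the test with 6 equally weighted libraries. In the fit of 5 libraries Slc16a3 differed by 2.99 (adjusted p 0.00145). The summed macrophage markers were 3226, 5070 and 13172 in doxorubicin replicates 1 to 3, in the same order, and Hk3, a hexokinase typical of myeloid cells, had 5.99, 12.2 and 6.504 in vehicle and 18.1, 6.16 and 171 in doxorubicin libraries, with only doxorubicin replicate 3 far above the rest. The part of such cells in the Slc16a3 values was not tested. Per kilobase of transcript, Slc16a3 averaged 2.59 normalized counts in vehicle and 16.7 in doxorubicin libraries, against 555 and 247 for Slc16a1.

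The promoters of the 2 lactate transporter genes and of Hk2 are shown because these genes had the largest positive difference, its paralogue, and the largest negative difference. Sequences are from RefSeq on GRCm38.p6, cover the 250 bases before a start site, and are written 5′ to 3′ on the strand of the gene. Capitals mark ACGTG, the core of the hypoxia response element bound by HIF factors, on either strand (CACGT on the other strand), or the E-box CACGTG, which holds ACGTG on each strand.
Slc16a3 (chr11:120948817-120949066, plus strand): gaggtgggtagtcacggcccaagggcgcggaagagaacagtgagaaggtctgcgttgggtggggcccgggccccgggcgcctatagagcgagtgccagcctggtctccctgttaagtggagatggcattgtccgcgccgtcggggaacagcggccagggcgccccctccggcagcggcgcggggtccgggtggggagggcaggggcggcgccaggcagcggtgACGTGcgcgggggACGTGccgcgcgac
Slc16a1 (chr3:104638414-104638663, plus strand): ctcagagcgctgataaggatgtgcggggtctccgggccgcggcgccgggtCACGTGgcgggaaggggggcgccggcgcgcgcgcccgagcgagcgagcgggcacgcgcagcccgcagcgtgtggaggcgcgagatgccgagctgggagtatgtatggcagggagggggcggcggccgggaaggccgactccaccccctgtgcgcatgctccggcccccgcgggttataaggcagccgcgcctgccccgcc
Hk2 (chr6:82774455-82774704, minus strand): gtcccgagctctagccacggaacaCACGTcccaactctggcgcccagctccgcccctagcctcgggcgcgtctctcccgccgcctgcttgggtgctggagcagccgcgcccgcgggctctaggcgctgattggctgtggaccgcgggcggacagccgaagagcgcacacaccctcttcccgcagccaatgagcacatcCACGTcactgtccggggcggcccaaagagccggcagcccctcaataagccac
The Slc16a3 window holds 2 stretches near the start site, the Slc16a1 window 1 E-box far from it and the Hk2 window 2 stretches. A match thus occurs in a gene that was higher and in genes that were lower after doxorubicin.

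RefSeq promoters were matched for 45 of the 48 members. ACGTG was found on either strand in at least 1 promoter of 10 of 20 glycolysis and transport genes (50%) and 5 of 25 mitochondrial members (20%), against 18.5% of 27025 genes with a promoter in the table. The 10 genes are Aldoa, Hk2, Ldha, Pfkm, Pgam1, Pgk1, Pkm, Slc16a1, Slc16a3 and Slc2a1, and the 5 are Idh3g, Mdh1, Ogdh, Pdhb and Pdk2. CACGTG was found in 3 of the 20 glycolysis and transport genes (15%) and 2 of the 25 mitochondrial members (8%), against 6.86% of all genes. TNAAGGTCA, the extended half-site of the oestrogen-related receptors that regulate mitochondrial genes, was found in 0 of 20 and 0 of 25 in these windows, against 1.3% of all genes. A gene counted when any of its promoters matched. The glycolysis and transport genes had 30 promoters for 20 genes, the mitochondrial members 33 for 25, and all genes 32851 for 27025. The shares were not adjusted for this, which favours genes with more promoters. All are matches of letters within 250 bases and say nothing of binding.

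Ratios of paralogues were compared within a library for 7 pairs. Apart from the added 1, they do not move when all values of a library are multiplied by a single factor. Quantile normalization can move them. Under it Ldha and Ldhb differed by -0.49 and -0.503, against -0.82 and -0.997 as deposited. The widely expressed paralogue gained on the muscle paralogue in 4 of the 5 pairs of that kind without overlap of the groups, and in the fifth, Slc2a1 to Slc2a4, doxorubicin replicate 1 lay within the vehicle range. For Pfkp to Pfkm the separation was narrow, at -4.04 in doxorubicin replicate 1 against -4.10 in vehicle replicate 1. How often ratios of other gene pairs separate was not computed. The log2 ratio of Hk1 to Hk2 was -0.49, -0.70 and -0.64 in vehicle and -0.33, 1.51 and 1.14 in doxorubicin libraries. Per length, Hk1 stood at 0.914, 0.791 and 0.826 times Hk2 in the vehicle libraries and at 1.02, 3.68 and 2.83 times in the doxorubicin libraries, so Hk2 was the more abundant hexokinase in all vehicle libraries and Hk1 in all doxorubicin libraries. In doxorubicin replicate 1 the 2 genes were nearly level.

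The log2 ratio of Eno1 to Eno3 was -3.57, -3.47 and -3.44 in vehicle and -3.02, -1.54 and -0.66 in doxorubicin libraries, a mean shift of 1.75. With Eno1b added to Eno1 the shift was 1.398, also without overlap. For Pgam1 to Pgam2 the values were -2.57, -2.52 and -2.51 and -2.10, -1.36 and -0.63, a shift of 1.17, and the vehicle libraries varied little (SD 0.03, n = 3). For Pfkp to Pfkm they were -4.10, -4.36 and -4.49 and -4.04, -2.83 and -2.77, a shift of 1.10. In these 3 pairs the muscle paralogue remained the more abundant one per length in every library, with Eno1 reaching 0.488 times Eno3 in doxorubicin replicate 3. For Slc2a1 to Slc2a4 the ratios were -4.37, -4.84 and -4.88 and -4.41, -2.38 and -2.22, with vehicle replicate 1 above doxorubicin replicate 1.

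The 2 pairs of lactate genes differed from each other. The ratio of Slc16a3 to Slc16a1 was -7.38, -7.37 and -8.26 in vehicle and -6.89, -3.53 and -2.75 in doxorubicin libraries, without overlap, whereas that of Ldha to Ldhb was -1.14, -1.33 and -1.33 and -1.05, -1.37 and -0.86, with overlap and a shift of 0.17 that was smaller than the SD of the doxorubicin libraries (0.26). That shift was 0.31 without doxorubicin replicate 2 and 0.058 without doxorubicin replicate 3. Leaving out 1 library at a time moved the shifts of the other 6 pairs by less than 1.5 times, between 1.21 and 2.39 for Eno1 to Eno3 and between 0.803 and 1.54 for Pgam1 to Pgam2. An exact two-sided permutation test over the 6 libraries gave p = 0.1, the smallest that 3 against 3 allow, for the 5 pairs without overlap, 0.2 for the glucose transporters and 0.4 for the lactate dehydrogenases (0.14, 0.233 and 0.4 after Benjamini-Hochberg adjustment over the 7 pairs). No pair therefore passed a threshold of 0.05, which this design cannot reach.

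**Figure D2:**
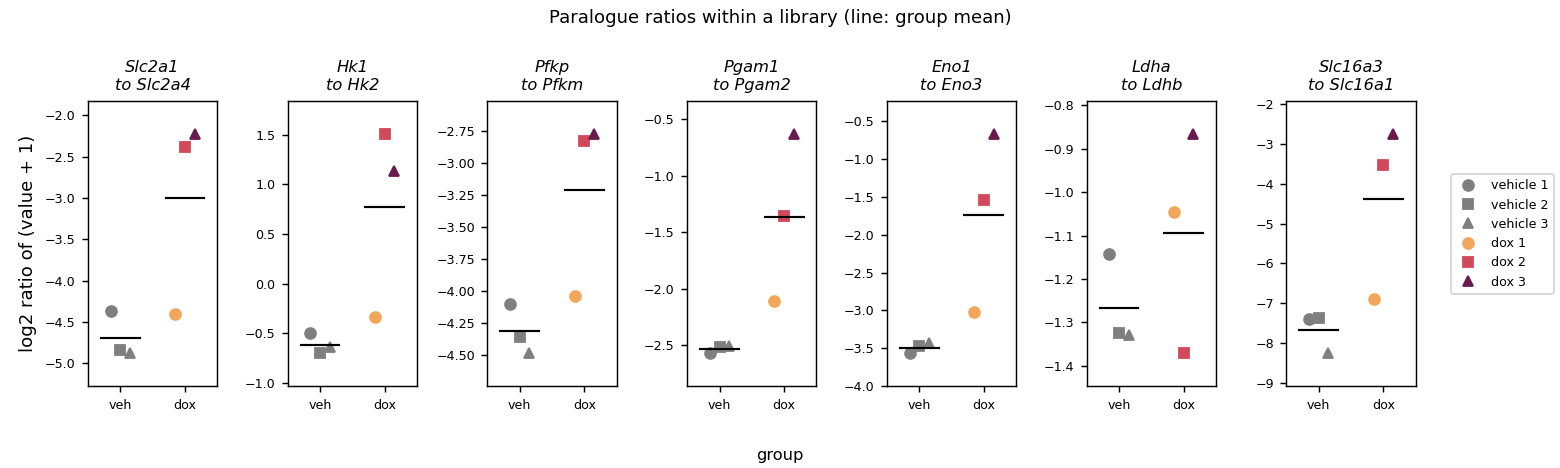
Each panel shows the log2 ratio of 2 paralogues in the 3 vehicle and 3 doxorubicin libraries (points) with the group mean (line). Groups are separate in 5 of 7 panels, and doxorubicin replicate 1 lies nearest to the vehicle libraries in those 5.

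Grouped after their values were seen, the 5 muscle paralogues (Slc2a4, Hk2, Pfkm, Pgam2 and Eno3) had log2 differences between -1.73 and -1.40, and the 6 widely expressed ones (Slc2a1, Hk1, Pfkl, Pfkp, Pgam1 and Eno1) between -0.56 and 0.23. Of the 5, all were called lower in the fit of 5 libraries, and of the 6, Pfkl was, against 21.8% of all genes. The 8 cardiomyocyte markers lay between -2.10 and -0.78, with a median of -1.53, beside -1.52 for the muscle paralogues. That range also holds the median of the mitochondrial members (-0.98). The part of the cell makeup in the paralogue ratios was not tested.

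The 2 genes that bring pyruvate into mitochondria, the 5 of the complex that oxidises it and 3 of its regulators were lower without overlap of the groups. So were 22.6% of all genes tested and 46.5% of those with a mean of at least 1000. The mitochondrial pyruvate carrier is a complex of Mpc1 and Mpc2. Mpc1 had 4028, 4239 and 3674 in vehicle and 2756, 2617 and 1236 in doxorubicin libraries, and Mpc2 had 3709.9, 3216 and 2972 and 2231, 1683 and 822. Doxorubicin replicate 3 held the lowest value of each by a wide margin. The log2 differences were -0.94 (SE 0.32, adjusted p 0.0922) for Mpc1 and -1.17 (SE 0.35, adjusted p 0.0859) for Mpc2, and both were called lower in the fit of 5 libraries (adjusted p 0.0173 and 0.00540).

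The PDH complex joins the E1 heterotetramer (Pdha1 and Pdhb), the E2 acetyltransferase (Dlat), the E3 dehydrogenase shared with other complexes (Dld) and the E3-binding protein (Pdhx). Its 5 genes differed by -0.89 to -1.28, a median of -1.04. Pdha1 (chromosome X, 160122219 to 160138430), the E1 alpha subunit that carries the phosphorylation sites, had 10279, 11349.9 and 12405 in vehicle and 8716, 6155 and 4206 in doxorubicin libraries (log2 difference -0.89, SE 0.31, adjusted p 0.0981). Its partner Pdhb had 5002, 5552 and 5366 and 3788, 1827 and 1518 and the largest difference of the complex (-1.28, SE 0.34, adjusted p 0.0859). The 2 subunits thus lay -0.89 and -1.28 from vehicle, and the difference between them was not tested. Dld, with the smallest unadjusted p of the complex, had 3804, 4384 and 4661 and 2979.8, 2059 and 1641 (log2 difference -0.98, adjusted p 0.0859). Dlat and Pdhx differed by -1.22 and -1.04. In the fit of 5 libraries all 5 genes were called lower, against 21.8% of all genes, with adjusted p from 0.000471 for Pdhb to 0.00875 for Pdha1.

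The 3 listed regulators of PDH act in opposite directions. The kinases Pdk1 and Pdk2 switch the complex off. Pdk2, the constitutive kinase of the heart, had 4273, 4278 and 4609 in vehicle and 3252, 2293 and 1440.4 in doxorubicin libraries (log2 difference -0.99, SE 0.30, adjusted p 0.0859), and Pdk1, a HIF target, had 1612, 1884 and 2216 and 1534, 1376 and 752 (-0.69, adjusted p 0.129). In Pdk1 doxorubicin replicate 1 lay only just below the lowest vehicle library. The phosphatase gene Pdp1, whose product switches the complex back on, had 382, 332 and 524 and 323, 232 and 183 (-0.76, SE 0.25, adjusted p 0.0912). All of them were called lower in the fit of 5 libraries, against 21.8% of all genes, with adjusted p of 0.00351, 0.0286 and 0.00950.

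The other 4 regulators, outside the 48, did not share one direction. Pdk4, the kinase gene induced by fasting and glucocorticoids, had 3379, 6254 and 2100.1 in vehicle and 5233, 14722 and 3064 in doxorubicin libraries, a log2 difference of 0.80 (SE 0.61, adjusted p 0.365) well within the spread. Its highest value was that of doxorubicin replicate 2. Pdk3 was low, at 17.2, 11.6 and 9.74 and 27.2, 43.6 and 37.9, and higher in every doxorubicin library (1.44, adjusted p 0.0859, and 0.00995 in the fit of 5 libraries). The second phosphatase gene, Pdp2, differed by -1.03 (adjusted p 0.183) with overlap, since doxorubicin replicate 1 held its highest value, 185. Pdpr, the regulatory subunit of the phosphatase, differed by -0.58 (adjusted p 0.119) with overlap.

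All 12 TCA cycle genes on the list were lower without overlap of the groups. So were 22.6% of all genes tested and 46.5% of those with a mean of at least 1000. The log2 differences of the 12 ran from -0.76 to -1.22, with a median of -0.99. All 12 were called lower in the fit of 5 libraries, against 21.8% of all genes. Cs, the citrate synthase gene that starts the cycle, had 12721, 12661 and 13424 in vehicle and 9815, 5505 and 3673 in doxorubicin libraries, or 12935 ± 424 against 6331 ± 3153 (SD, n = 3 in each group). The doxorubicin libraries were spread over a range far wider than the vehicle libraries. Its log2 difference was -1.15 (SE 0.37, adjusted p 0.0878, and 0.00266 in the fit of 5 libraries).

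Isocitrate is oxidised by the NAD-dependent enzyme of Idh3a, Idh3b and Idh3g and by the NADP-dependent enzyme of Idh2. Idh3a, the catalytic subunit, had 5347, 5329 and 5493 in vehicle and 3991, 2137 and 1463 in doxorubicin libraries (log2 difference -1.22, SE 0.35, adjusted p 0.0859), the largest difference of the cycle. The regulatory subunits Idh3b and Idh3g differed by -1.01 and -0.82. Idh2 had 14495, 14699 and 16872 and 11462, 10039 and 5837 (-0.81, adjusted p 0.126). Per kilobase of transcript Idh2 was the most abundant gene of the listed cycle in the vehicle libraries, at 8799.6 normalized counts, followed by Mdh2 at 6513 and Ogdh at 5585.

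Ogdh, the E1 subunit of the 2-oxoglutarate dehydrogenase complex, had 21762, 22234 and 25149.6 in vehicle and 18122, 11282 and 6800.1 in doxorubicin libraries (log2 difference -1.04, SE 0.41, adjusted p 0.117). Dlst, its E2 subunit, differed by -1.12 (adjusted p 0.0859), and the E3 subunit is the Dld described with PDH. Succinyl-CoA ligase has a shared alpha subunit, Suclg1, and either the ATP-forming beta subunit Sucla2 or the GTP-forming Suclg2. Suclg1, with the smallest unadjusted p of the cycle, had 3087, 2807 and 2746 and 2171, 1369.7 and 1083 (-0.96, adjusted p 0.0859). Sucla2 had 5764, 5996 and 5849.5 and 4143, 3031 and 2137 (-0.97, adjusted p 0.0859), and Suclg2 differed by -0.76 (adjusted p 0.0932), the smallest difference of the cycle.

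Fumarate hydratase and malate dehydrogenase close the cycle. Fh1 had 3590.3, 3605 and 3752 in vehicle and 2527, 1923 and 1140.3 in doxorubicin libraries (log2 difference -1.04, SE 0.29, adjusted p 0.0859), and Mdh2 had 10356, 9007 and 9088 and 7209, 6117 and 3428 (-0.83, SE 0.32, adjusted p 0.111). In both genes doxorubicin replicate 3 was the lowest library. Of the other genes of the cycle, the succinate dehydrogenase gene Sdhd had 3854, 3712 and 3831 and 2679.6, 1535 and 1428 (-1.07, adjusted p 0.0859). Sdha, Sdhb and Sdhc differed by -0.82, -1.09 and -0.87. The cytosolic enzymes Idh1 and Aco1 differed by -0.32 and -0.42, with overlap of the groups in each.

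The malate-aspartate shuttle carries the electrons of glycolytic NADH into mitochondria, and its 5 genes were lower without overlap. So were 22.6% of all genes tested and 46.5% of those with a mean of at least 1000. Mdh1, the cytosolic malate dehydrogenase gene, had 18758, 19924 and 19090.0 in vehicle and 13378, 7319.7 and 5279.7 in doxorubicin libraries (log2 difference -1.26, SE 0.38, adjusted p 0.0859). Slc25a11, the oxoglutarate carrier gene, had 4919, 4596 and 4730.5 and 3412, 1723 and 1169.6 and the largest difference of the 27 mitochondrial members (-1.32, SE 0.37, adjusted p 0.0859). The aspartate-glutamate carrier gene Slc25a12, with the smallest unadjusted p of the shuttle, had 1972, 1904 and 2155 and 1482, 1049 and 715 (-0.95, adjusted p 0.0859). Its paralogue Slc25a13, outside the 48, differed by -1.40 (adjusted p 0.0859). The cytosolic transaminase gene Got1 had 6602, 6175 and 6717 and 5153, 4956 and 2754, the smallest difference of the mitochondrial members (-0.65, adjusted p 0.142), and the mitochondrial Got2 differed by -0.85 (adjusted p 0.09999). All 5 genes were called lower in the fit of 5 libraries, against 21.8% of all genes, Got1 with an adjusted p of 0.0417.

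**Figure D3:**
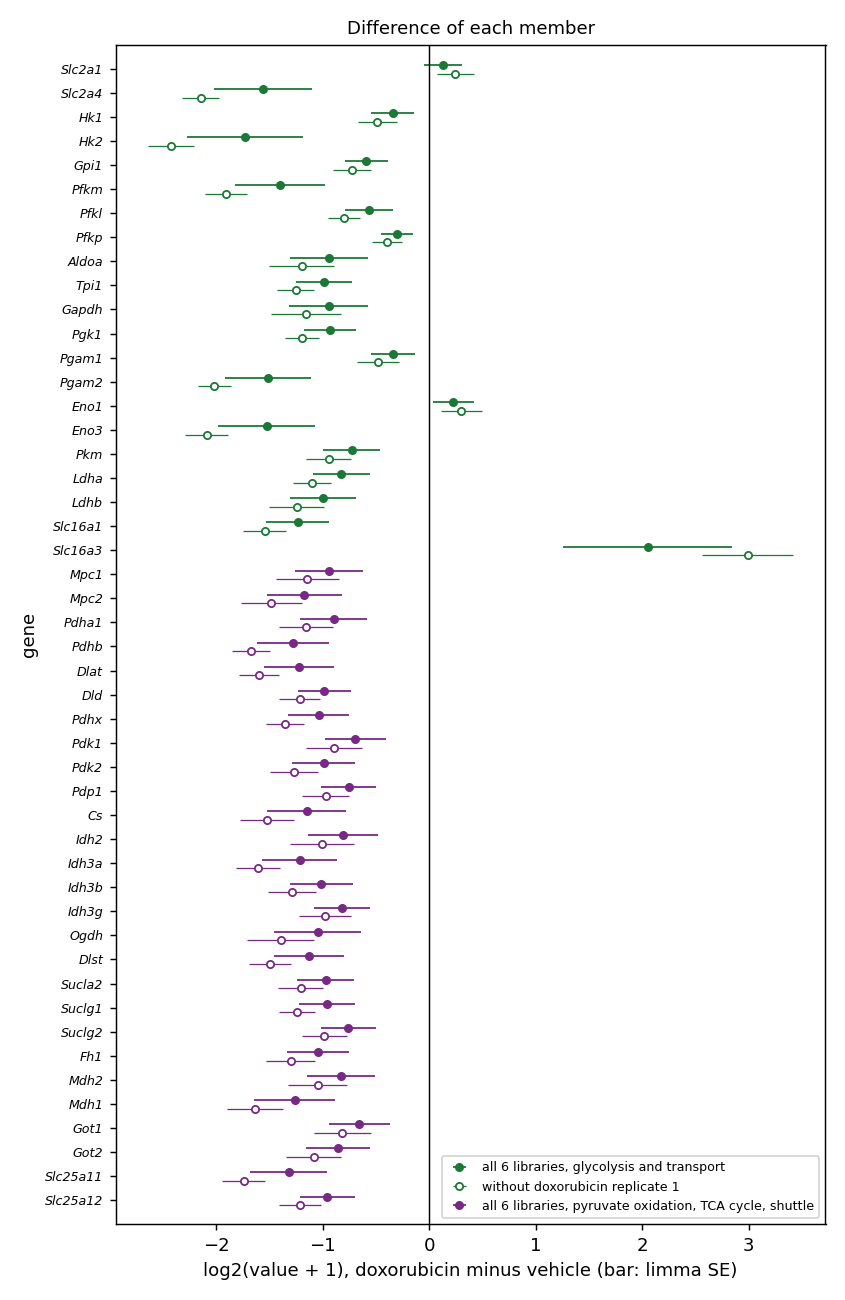
Points give the doxorubicin minus vehicle difference of log2(value + 1) for each member with the limma SE as a bar, filled for all 6 libraries and open for the fit without doxorubicin replicate 1. The 27 mitochondrial members lie between -1.32 and -0.65, and the 21 glycolysis and transport members between -1.73 and 2.05.

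The second comparison set the 21 glycolysis and transport members against the 27 mitochondrial members. Their medians were alike, at -0.93 and -0.98. In 16 of 21 and 27 of 27 the groups did not overlap, all lower. The shares that were so were 22.6% of all genes tested and 46.5% of those with a mean of at least 1000. The ranges differed, because the glycolysis members held both the largest negative differences, in Hk2, Slc2a4, Eno3 and Pgam2, and the 3 members with a positive difference. In doxorubicin replicates 1 to 3 the median of the glycolysis members relative to the vehicle mean was -0.34, -0.94 and -1.26, and that of the mitochondrial members -0.43, -0.95 and -1.59. The 2 medians differed by 0.09, 0.02 and 0.34. Doxorubicin replicate 3 was below replicate 2 in 27 of 27 mitochondrial members and in 11 of 21 glycolysis members, among the exceptions Slc2a4 and Hk2. Quantile normalization gave medians of -0.47 and -0.70, a difference of 0.23 in place of 0.05. Leaving out 1 library also moved that difference, to 0.17 without doxorubicin replicate 2, 0.11 without vehicle replicate 1 and 0.08 without doxorubicin replicate 1.

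**Figure D4:**
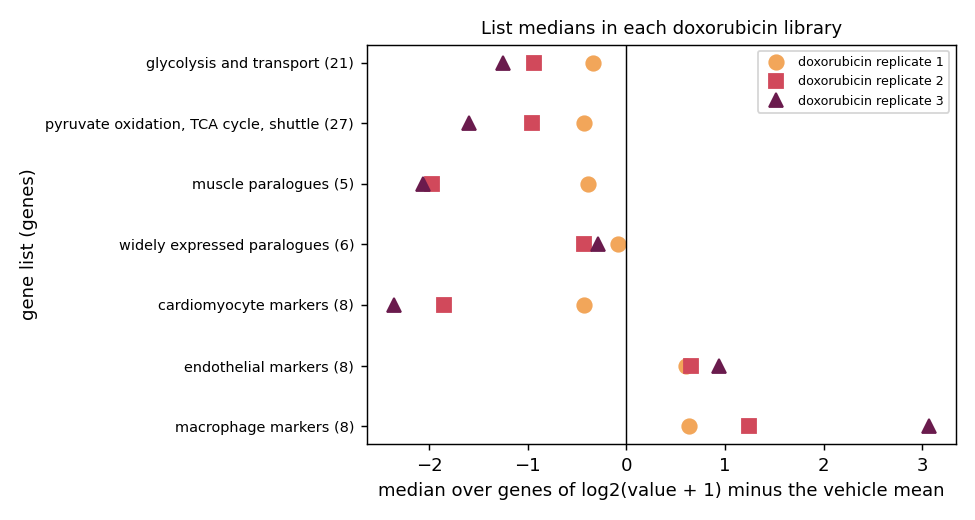
Each point is the median over a gene list of log2(value + 1) minus the vehicle mean in 1 doxorubicin library, for the 2 arms of the pathway, the paralogues and 3 lists of cell type markers. Doxorubicin replicate 1 is the least displaced library in the 2 arms and in the cardiomyocyte markers, and macrophage markers reach 3.07 in replicate 3.

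The libraries also split by sex-linked transcripts, with Xist at 1558 to 2093 and Ddx3y at 0 in vehicle replicate 3 and doxorubicin replicates 1 and 3. In the other libraries Ddx3y was at 659 to 958 and Xist at 0 to 1.92. Within the libraries with Xist (1 vehicle, 2 doxorubicin) the medians were -0.84 for glycolysis and -1.07 for mitochondrial members, and within those with Y-linked transcripts (2 vehicle, 1 doxorubicin) -0.94 and -0.96, without a test. In each class 27 of 27 mitochondrial members and 18 of 21 glycolysis members were lower after doxorubicin. The share of all genes lower within a class was not computed. With all 6 libraries it was 50.4%, and 70.9% of genes with a mean of at least 1000. The 2 classes divide the same 6 libraries, each with 1 library on a side, and are no independent repeat. The X-linked members are Pdha1, Pgk1 and Idh3g.

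A further 72 genes of glucose metabolism, listed with earlier results of these data known, gave the surroundings of the pathway. Of these, 67 were tested, 48 were lower and 19 higher, and limma called 0 with 6 libraries. In the fit of 5 it called 36 lower, against 21.8% of all genes, and 11 higher, against 19.3%, and the 11 of 67 are a share no larger than that background. In fructose 2,6-bisphosphate metabolism, which sets the pace of phosphofructokinase, the differences of the 4 paralogues were of both signs. Pfkfb3, the inducible form with high kinase activity, had 76.6, 86.5 and 87.3 in vehicle and 114, 421 and 673 in doxorubicin libraries, the largest positive difference of the 67 (1.92, SE 0.57, adjusted p 0.0859), and differed by 2.66 in the fit of 5 libraries (adjusted p 0.000203). Every doxorubicin library lay above every vehicle library, and doxorubicin replicate 1 only slightly. Pfkfb2, the heart form, had 581, 861 and 928 and 690.3, 161 and 334 (-1.21, adjusted p 0.120), with doxorubicin replicate 1 inside the vehicle range. Pfkfb1, the form of liver and muscle, had 86.3, 109 and 54.5 and 81.8, 55.3 and 55.9 (-0.34, adjusted p 0.432), with overlap. Pfkfb4 was low, at 17.1, 24.9 and 21.7 and 33.8, 28.8 and 49.3, higher without overlap (0.76, adjusted p 0.124, and 0.0942 with 5 libraries).

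In glycogen metabolism 8 of 9 genes were lower and 6 were so without overlap, against 22.6% of all genes tested and 46.5% of those with a mean of at least 1000. In the fit of 5 libraries 7 of 9 were called lower, against 21.8%. The muscle phosphorylase gene Pygm, which releases glucose 1-phosphate, had 9388, 9965 and 10896 and 7891, 4117 and 3055 (-1.12, adjusted p 0.0878), and the synthase gene Gys1 had 1067, 1191 and 1166 and 1008, 576 and 382 (-0.91, adjusted p 0.0988). The pentose phosphate pathway, which branches off at glucose 6-phosphate and makes NADPH, was mixed, with 4 of 7 genes higher and 3 lower. G6pdx, its first enzyme, had 77.9, 68.0 and 43.6 and 84.2, 159 and 285 (1.33, adjusted p 0.0881), and the transketolase gene Tkt had 212, 227 and 201 and 311, 365 and 438 (0.79, adjusted p 0.0859). Both had every doxorubicin value above every vehicle value and were called higher in the fit of 5 libraries (adjusted p 0.00379 and 0.00287). Pgls was lower without overlap (-0.72, adjusted p 0.0884, and 0.00935 with 5 libraries). Taldo1 was lower with overlap (-0.36, adjusted p 0.152, and 0.0469 with 5 libraries). Over the 7 genes, 2 were higher and 1 lower without overlap, against 19.2% and 22.6% of all genes. The fit of 5 libraries called 3 higher and 2 lower, against 19.3% and 21.8%. Pygm, Gys1, G6pdx, Tkt, Pgls and Taldo1 were named after their values were seen. So were, of the further genes above, Hk3, Pfkfb4, Pdk3, Pdp2, Pdpr, Sdha, Sdhb, Sdhc, Idh1, Aco1 and Slc25a13. In the same libraries 6 of 8 endothelial and 7 of 8 macrophage markers were higher without overlap, against 19.2% of all genes. The part of such cells in these values was not tested.

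**Figure D5:**
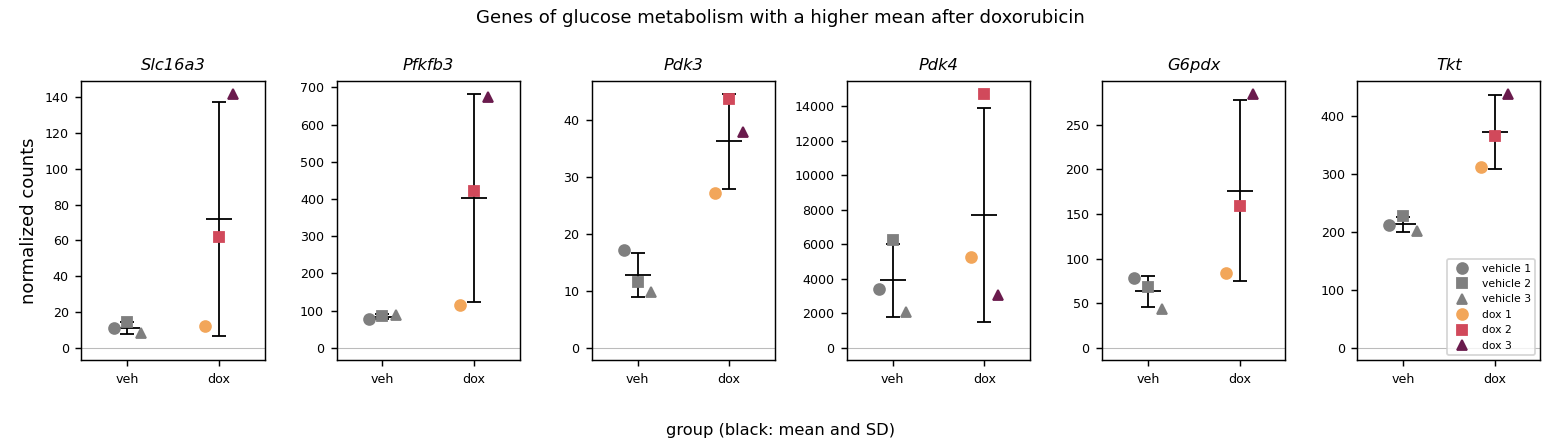
Normalized counts of 6 genes in each library, with the group mean and SD in black, for Slc16a3 and for 5 further genes of glucose metabolism whose mean was higher after doxorubicin. In Pfkfb3, Pdk3, G6pdx and Tkt the groups do not overlap, and in Slc16a3 and Pdk4 they do.

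Eno1b had the largest negative difference of the 67 genes. It stood at 466, 321 and 368 in vehicle, 354 in doxorubicin replicate 1 and 14.99 and 20.1 in replicates 2 and 3 (-2.95, SE 1.05, adjusted p 0.1004, and 4.50e-05 in the fit of 5 libraries, where it differed by -4.38). Its sequence is close to that of Eno1, so reads may be assigned to either gene. Eno1 and Eno1b together, a sum taken after the values were seen, came to 1316, 1165 and 1281 in vehicle and 1269, 887 and 1338 in doxorubicin libraries, with overlap of the groups. Eno1b made up 27.5% to 35.4% of that sum in vehicle and 27.9%, 1.69% and 1.501% in the 3 doxorubicin libraries.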

How the data were processed

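Per the series' design text and the submitters' processing notes, reads were aligned with STAR 2.6.1a in the BaseSpace RNAseq Alignment application (2.0.2) to mm10 with RefSeq genes, followed by RNA-seq Differential Expression 1.0.1. Salmon is named without a role. For strand use and filters the sources used here give nothing. The authors deposited a signal, the normalized count of each gene, with 1 column per library. Median-of-ratios factors computed over 13518 genes were 1.006 in all 6 libraries, so the values already lie on that scale.

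Sample titles gave the groups and the replicate numbers. Values were used as deposited. Genes with a mean of at least 10 were tested on log2(value + 1) with limma 3.58.1 in R 4.3.3 (empirical Bayes with a mean trend, two-sided, Benjamini-Hochberg over 12477 genes, threshold 0.05). The fit was tested on simulated data with the same SD in both groups, the median SD of the vehicle libraries. In the data the median log2 SD of the members was 0.076 in vehicle and 0.55 in doxorubicin libraries. The simulation therefore does not show how the fit behaves with such unequal spread. Only log2(value + 1) differences are reported, which understate the change of low genes. Values per kilobase used the longest protein-coding GENCODE M21 transcript, and coordinates the RefSeq table of GRCm38.p6. The lists of members, other pathway genes, markers, paralogue pairs and motifs were chosen with earlier results of these data known. Every library value was given for a fixed set of members, for the member of each role with the smallest unadjusted p, and for Pdk4, Pfkfb1, Pfkfb2, Pfkfb3, Sdhd and the other pathway genes with the largest rise and fall; some genes of that list are not reported here. Other scalings, filters, pseudocounts, moderation, weights, covariates, the replicate number as a block and the omission of each library were tried. Each library is 1 mouse. Figures used matplotlib 3.10.9.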

Additional observations from a re-analysis of the deposited data

How the results depend on the processing

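The direction of all 48 members was kept under each alternative run, except Eno1 with Eno1b added (-0.13, an alternative chosen after seeing the data), Pfkp with equal totals (0.0020, where the median of all genes moved to 0.30) and Slc2a1 without doxorubicin replicate 3 (-0.014, in a range of -0.014 to 0.25 over the fits that omit a library); Slc16a3 was not tested at a minimum mean of 50. With equal totals the medians were -0.63 for glycolysis and -0.68 for mitochondrial members. Quantile normalization moved the difference of the 2 medians from 0.05 to 0.23, and omitting a library moved it to between 0.05 and 0.17; the cause was not tested. Calls depended on doxorubicin replicate 1. Weighting the libraries (weight of 0.277 for this one) called 1954 genes higher and 2318 lower over all genes, 1 member higher and 41 lower, and 10 of the other pathway genes higher and 34 lower. A threshold of 0.10 gave 1383 and 1639 genes, 33 members lower, and 6 and 21 of the other pathway genes. Over the 6 fits that omit a library, limma called 0 to 2409 genes higher and 0 to 2718 lower, 0 to 1 member higher and 0 to 42 lower, and 0 to 11 other pathway genes higher and 0 to 36 lower; the upper end of each is the fit without doxorubicin replicate 1. Without doxorubicin replicate 2 limma called 1 gene lower and no member (0). The smallest adjusted p of a member in the other 5 such fits ran from 0.166 to 0.256.

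Same-numbered libraries did not deviate together (correlations of -0.13, 0.03 and -0.09), and no doxorubicin library correlated best with its own number. With 3 libraries in each group this cannot show whether same-numbered mice were handled together, and the labels do not say. With the replicate block limma called 0 genes higher and 0 lower, as without it, and the smallest adjusted p was 0.115. Depth limits Slc16a3 and Pdk3, which rest on few reads in the vehicle libraries.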

Other observations

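Of 12 genes of glucose sensing, hypoxia signalling and mitochondrial transcription, 6 were higher and 6 lower after doxorubicin, and limma called 0 with 6 libraries. Epas1, the HIF2 alpha gene that is abundant in endothelium, had 4678, 5057 and 4357 normalized counts in vehicle and 5109.6, 8503 and 10420.4 in doxorubicin libraries (0.71, adjusted p 0.133). Its values in every doxorubicin library lay above every vehicle library, as did those of 6 of 8 endothelial markers and of 19.2% of all genes. Hif1a had 728, 826 and 918 and 807, 573 and 784, with overlap (-0.20, adjusted p 0.451). Egln3, a prolyl hydroxylase gene of the heart, had 1059.7, 701 and 918 and 731, 279 and 165, with overlap (-1.44, adjusted p 0.0922). Txnip, an inhibitor of glucose uptake, had 2996, 3979 and 3463 and 3472, 11310.5 and 6275, with overlap (0.86, adjusted p 0.171), and the highest value was in doxorubicin replicate 2, as it was for Pdk4. Esrra, which encodes an oestrogen-related receptor that regulates genes of oxidative metabolism, had 1509.6, 1464 and 1544 and 1100.5, 691 and 551, without overlap (-1.01, adjusted p 0.0859), and its coactivator gene Ppargc1a differed by -0.76 (adjusted p 0.111), with overlap. In the fit without doxorubicin replicate 1 the adjusted p were 0.00718 for Epas1, 0.237 for Hif1a, 0.000861 for Egln3, 0.00872 for Txnip, 0.000742 for Esrra and 0.00523 for Ppargc1a. The genes named here were chosen after their values were seen.

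The GLUT12 gene Slc2a12 had 76.1, 81.7 and 101 in vehicle and 50.4, 30.1 and 19.0 in doxorubicin libraries, without overlap (-1.45, adjusted p 0.0859). Of the further glucose transporter genes, Slc2a3 was low and differed by 0.75 (adjusted p 0.231), and Slc2a8 by -0.12 (adjusted p 0.658), each with overlap. In the fit of 5 libraries the adjusted p were 0.00177 for Slc2a12, 0.0397 for Slc2a3 and 0.466 for Slc2a8. The alanine transaminase genes Gpt and Gpt2 differed by -1.11 and -0.78, each without overlap. The share lower without overlap was 22.6% of all genes tested. These 5 genes were also named after their values were seen.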
